A study of Gallus gallus with 6 samples.

Results

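The genes described here are 6 receptors for hormones and neurotransmitters in the uterus of the hen, namely the beta 1 adrenoceptor ADRB1, the adenosine A2a receptor ADORA2A, the vasopressin receptor 1A AVPR1A, the purinergic receptor P2RX2, the gonadotropin-releasing hormone receptor GNRHR and the cholecystokinin B receptor CCKBR. They were found by name in the authors' deposited list of genes called different between laying and non-laying hens, which names 516 of its 616 genes, and their 6 Ensembl identifiers were then looked up among the 19152 genes of the count table. A gene without a call on these libraries has no name in the files, so every receptor here had already been called by the authors in the same contrast. The tests below describe these genes and are no independent evidence for their difference.

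The tissue was uterus, or shell gland, taken as pieces of unsorted tissue from 3 laying hens (layers) and 3 non-laying hens (non-layers) of the Hy-line strain, with 1 library per hen. The layers were 35 weeks old and were sampled during active calcification of the shell. The non-layers were 35 to 60 weeks old and had no growing follicles in the ovary, so that laying status, ovarian state and, in part, age cannot be told apart. Poly-A RNA was sequenced, and gene counts summed to between 16749841 and 20333092 in layers and between 14756652 and 18676916 in non-layers.

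Most of these receptors belong to the G protein-coupled receptors, which bind a ligand outside the cell and pass the signal to a G protein inside it. ADRB1 and ADORA2A couple mainly to Gs, which raises cyclic AMP, whereas AVPR1A, GNRHR and CCKBR couple mainly to Gq, which activates phospholipase C and releases calcium from internal stores. P2RX2 is of another kind, a cation channel that ATP opens. In birds, arginine vasotocin takes the place of vasopressin and is known to make the shell gland contract at oviposition. GNRHR is best known from the pituitary, and CCKBR, which binds gastrin and cholecystokinin, from the stomach and the brain.

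In the comparison of layers with non-layers, AVPR1A, ADORA2A and GNRHR rose in layers, and P2RX2, ADRB1 and CCKBR did not pass the test. Expression is given as CPM, in which a gene's counts are divided by the library's size in units of 1e+06 counts, with that size corrected by the TMM method for the share of counts that a few genes take up. A gene was called when its adjusted p was under 0.05 by edgeR's quasi-likelihood test with Benjamini-Hochberg adjustment over all 13317 genes tested and its change was at least 2-fold. All 6 receptors passed the filter on low counts. The test called 3 of the 6 higher in layers and 0 lower, where 0.901% of all genes tested were called higher and 0.969% lower. At an unadjusted p under 0.05 all 6 passed, beside 20.3% of all genes. DESeq2's Wald test called 5 of the 6 higher and 1 lower, beside 3.11% and 3.43% of all genes, and DESeq2 is also the tool behind the authors' list. With library size as the only scaling edgeR called 4 higher and 1 lower, beside 0.773% and 5.09% of all genes, and the median difference over all genes moved to -0.33 on the log2 scale. The calls of edgeR also changed when 1 library was left out, which lowered the number of hens and changed the adjustment over all genes. Some were lost although the gene's own p did not rise. For ADORA2A without layer 1, edgeR's unadjusted p fell from 0.00075 to 0.00059 while the adjusted p rose from 0.045 to 0.069. For AVPR1A without non-layer 2, the unadjusted p fell from 0.00047 to 0.00029 and the adjusted p rose from 0.036 to 0.090. Without layer 3 there were 2 receptors called, beside 273 of 13530 genes tested, and without non-layer 3 there was 1, beside 274 of 13499. Without layer 1, layer 2, non-layer 1 or non-layer 2 there was 0, where 41, 2, 0 and 1 of all genes were called. All 6 kept an unadjusted p under 0.05 in each of these fits, as did between 1704 and 3159 of all genes. Nearest to the threshold were ADORA2A on the inside, with an adjusted p of 0.045 by edgeR, and P2RX2 on the outside, with 0.051. The median log2 fold change was 2.17 over the 6 receptors and 0.01 over all genes tested. For 5 of the 6, every layer lay above every non-layer in CPM, which held for 12.1% of all genes tested. For the remaining one, CCKBR, every layer lay below every non-layer, as for 15.1% of all genes. Because the receptors were chosen by this contrast, nothing is read from these shares. In a bulk sample, fewer cells of a type and less RNA per cell cannot be told apart.

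**Figure D1:**
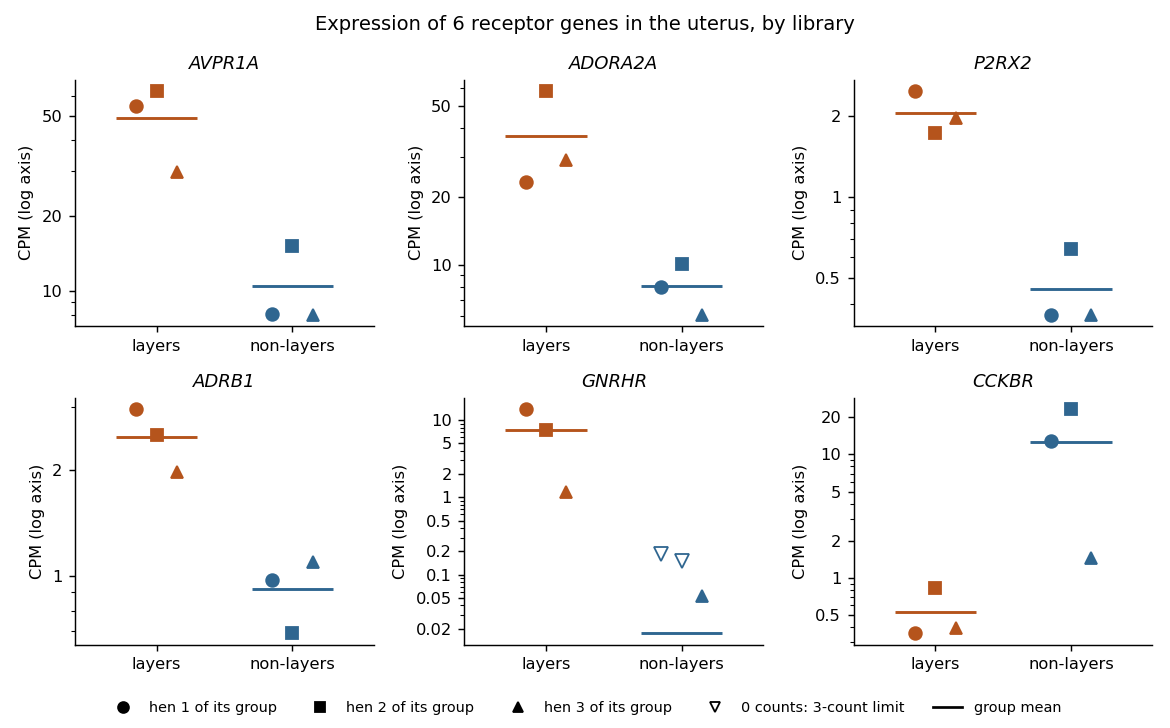
CPM of each receptor on a log axis with its own range per panel, for the 3 layers and the 3 non-layers; each symbol is 1 hen, the line is the group mean, and an open triangle stands for 0 counts and is drawn at the limit of 3 counts. AVPR1A, ADORA2A, P2RX2, ADRB1 and GNRHR lie higher in every layer than in any non-layer, and CCKBR lies lower.

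The vasotocin receptor AVPR1A had the highest mean level per length of the 6 genes in layers and rose against non-layers. AVPR1A (ENSGALG00000040567, minus strand of chromosome 1 of Galgal 5.0, 33298676 to 33301273) had 925, 905 and 533 counts in the layers 1, 2 and 3, against 133, 307 and 154 in non-layers 1, 2 and 3. Scaled, the layers were at 54.8, 62.9 and 29.9 CPM and the non-layers at 8.11, 15.1 and 8.03 CPM. Layer 3 was the lowest layer and non-layer 2 the highest non-layer, and a 1.98-fold gap was left between them. AVPR1A averaged 49.2 ± 17.2 CPM in layers, against 10.4 ± 4.07 CPM in the non-layers (SD, n = 3 each). On the log2 scale it was 2.24 ± 0.37 (SE) higher in layers, and edgeR's adjusted p was 0.036. The call held without layer 3 (adjusted p = 0.031 by edgeR) and was lost without layer 1 (0.093), layer 2 (0.11), non-layer 1 (0.18), non-layer 2 (0.090) or non-layer 3 (0.079), while the difference stayed between 2.02 and 2.61 on the log2 scale.

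The adenosine receptor ADORA2A was the other of the 2 abundant receptors that rose in layers. ADORA2A (ENSGALG00000006642, minus strand of chromosome 15, 8526761 to 8536246) had 392, 839 and 515 counts in the layers 1, 2 and 3, and 131, 206 and 116 in the non-layers in the same order. The layers were thus at 23.2, 58.3 and 28.9 CPM and the non-layers at 7.99, 10.1 and 6.04 CPM. Layer 2 stood at 2.51 times layer 1, and the lowest layer was still 2.29-fold above the highest non-layer. Layers averaged 36.8 ± 18.8 CPM and non-layers 8.06 ± 2.05 CPM (SD, n = 3 each), a difference of 2.19 ± 0.40 (SE) on the log2 scale at an adjusted p of 0.045 by edgeR. With layer 1, 2 or 3 or non-layer 1, 2 or 3 left out, the adjusted p of ADORA2A lay between 0.056 and 0.20, so the call was lost in all 6 fits. Its difference was smallest, at 1.69 on the log2 scale, without layer 2.

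The receptor for gonadotropin-releasing hormone was all but absent from the counts of non-layers and varied widely among layers. GNRHR (ENSGALG00000020923, minus strand of chromosome 10, 20012995 to 20015650) had 232, 107 and 21 counts in the layers 1, 2 and 3, and 0, 0 and 1 in non-layers 1, 2 and 3. The layers were at 13.7, 7.43 and 1.18 CPM. In non-layers 1 and 2, a count of 0 allows up to 0.183 and 0.148 CPM, taking 3 counts as the limit, and the single count of non-layer 3 corresponds to 0.0521 CPM. Layer 1 was 11.7 times as high as layer 3 and held 64.4% of the layers' counts, and layer 3 still lay above the limit of every non-layer. Summed over the hens and scaled by TMM, 360 counts in layers against 1 in non-layers gave a ratio of 410 (95% Clopper-Pearson interval 73.1 to 16239, counting error only). edgeR put the difference of GNRHR at 8.22 ± 1.31 (SE) on the log2 scale, at an adjusted p of 0.034, and this value rests on 1 count in non-layers. With 1 library left out it lay between 7.43, without layer 1, and 9.999 ± 2.08 (SE), without non-layer 3. In that last fit the remaining non-layers 1 and 2 had 0 counts, so its value is not a measured fold change. The call held without layer 3 (adjusted p = 0.014 by edgeR) and was lost without layer 1 (0.075), layer 2 (0.11), non-layer 1 (0.17), non-layer 2 (0.13) or non-layer 3 (0.098). In the reference list of chicken RefSeq genes, the symbols of 5 of the 6 receptors are found but not GNRHR, while 2 genes there carry GnRH receptor synonyms, and which of them this identifier stands for was not settled.

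The gene model of GNRHR lies inside that of ANPEP, on the same strand. ANPEP, which encodes a membrane aminopeptidase, spans 19886093 to 20028017 on chromosome 10 and also rose in layers. ANPEP had 2237, 1498 and 1720 counts in layers 1, 2 and 3, and 696, 850 and 856 in non-layers 1, 2 and 3. It was higher in layers by 1.37 ± 0.16 (SE) on the log2 scale, at an adjusted p of 0.026 by edgeR. The counts of GNRHR amounted to 10.4%, 7.14% and 1.22% of those of ANPEP in layers 1, 2 and 3, against 0%, 0% and 0.117% in non-layers 1, 2 and 3, so the 2 genes did not keep a constant ratio. The deposited gene list marks GNRHR, P2RX2 and ADRB1 as confounded, a mark carried by 114 of its 616 genes and by ANPEP and not explained in the sources used here. The part of reads from ANPEP in the counts of GNRHR was not tested.

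**Figure D2:**
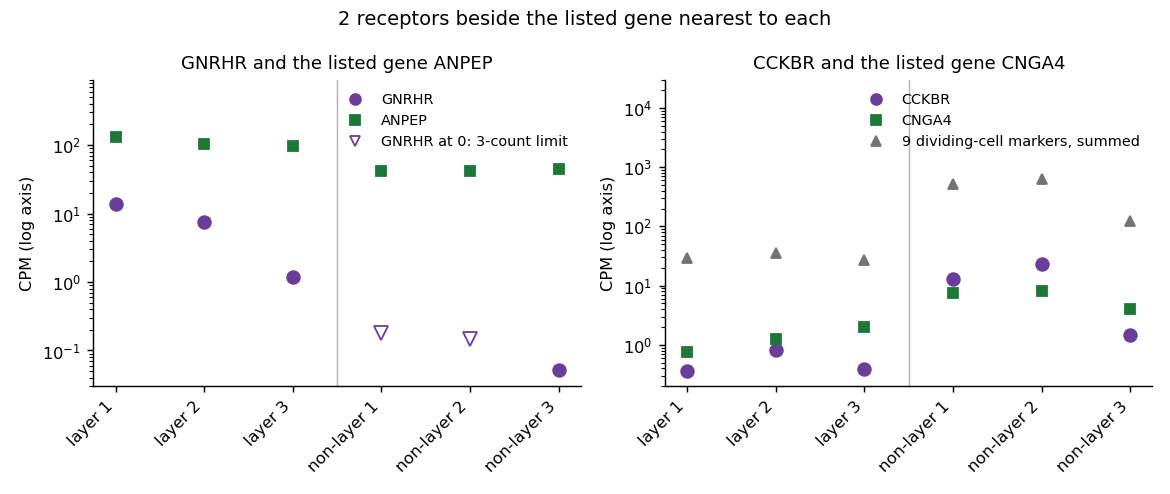
CPM per library on a log axis, for GNRHR with the gene ANPEP that contains it (left) and for CCKBR with CNGA4, the nearest gene of the deposited list, and the sum of 9 markers of dividing cells (right); each symbol is 1 library, and open triangles mark 0 counts at the limit of 3 counts. GNRHR differs more between the groups than ANPEP, and CCKBR, CNGA4 and the markers each have their lowest non-layer in non-layer 3.

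The ATP-gated channel P2RX2 had low counts, 2.71-fold apart between the lowest layer and the highest non-layer, and missed the threshold. P2RX2 (ENSGALG00000044649, plus strand of chromosome 15, 10048880 to 10051636) had 42, 25 and 35 counts in the layers 1, 2 and 3, and 6, 13 and 7 in non-layers 1, 2 and 3. P2RX2 averaged 2.06 ± 0.385 CPM in layers, against 0.457 ± 0.159 CPM in the non-layers (SD, n = 3 each), a difference of 2.15 ± 0.41 (SE) on the log2 scale at an adjusted p of 0.051 by edgeR. The summed counts of 102 in layers and 26 in non-layers gave a ratio of 4.47 (95% Clopper-Pearson interval 2.88 to 7.16, counting error only). The deposited counts of P2RX2 were fractions in 5 of the 6 libraries, and rounding moved them by up to 0.476 of a count.

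The adrenoceptor ADRB1 had the smallest difference of the 6 and was not called. ADRB1 (ENSGALG00000008949, plus strand of chromosome 6, 27679147 to 27680421) had 50, 36 and 35 counts in the layers 1, 2 and 3, and 16, 14 and 21 in non-layers 1, 2 and 3. The groups did not overlap, with layers at 2.96, 2.50 and 1.97 CPM and non-layers at 0.975, 0.690 and 1.09 CPM. The difference of ADRB1 was 1.42 ± 0.37 (SE) on the log2 scale, and its adjusted p was 0.097 by edgeR. From 121 counts in layers and 51 in non-layers, the ratio was 2.70 (95% Clopper-Pearson interval 1.93 to 3.83, counting error only). Between layers the coefficient of variation was 20.1% for ADRB1 and 18.7% for P2RX2, beside 34.9% for AVPR1A and 51.1% for ADORA2A. For GNRHR it was 84.3% and for CCKBR 50.4%. Between non-layers it was 22.6% for ADRB1 and 34.8% for P2RX2, beside 39.1% for AVPR1A, 25.5% for ADORA2A and 86.7% for CCKBR. At the low counts of ADRB1 and P2RX2, counting error makes up more of this variation than for AVPR1A and ADORA2A. The values are therefore not like measures of the spread between hens.

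CCKBR was the single receptor of the 6 with less expression in layers, and its non-layers were far apart. CCKBR (ENSGALG00000039837, minus strand of chromosome 1, 194457115 to 194459494) had 6, 12 and 7 counts in the layers 1, 2 and 3, and 212, 470 and 28 in non-layers 1, 2 and 3. The layers were at 0.355, 0.834 and 0.393 CPM and the non-layers at 12.9, 23.2 and 1.46 CPM. Non-layer 3 was 15.9-fold below non-layer 2 and only 1.75-fold above layer 2. Layers minus non-layers, the difference of CCKBR was -4.57 ± 0.995 (SE) on the log2 scale, and with an adjusted p of 0.062 by edgeR it was not called. Without non-layer 3 it was called, at -5.10 ± 0.48 (SE) and an adjusted p of 0.0082 by edgeR. In the other 5 fits with 1 library left out its adjusted p lay between 0.12 and 0.22, and without non-layer 2 the difference was -3.77. The summed counts of 25 in layers and 710 in non-layers gave a ratio of 0.0401 (95% Clopper-Pearson interval 0.0258 to 0.0597, counting error only).

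Of the genes in the deposited list, the nearest to CCKBR, on the same strand, is CNGA4, a subunit of cyclic nucleotide-gated channels, whose near end is 1402 bases from that of CCKBR. CNGA4 had 13, 18 and 36 counts in layers 1, 2 and 3, and 121, 162 and 77 in non-layers 1, 2 and 3. Its difference, -2.25 ± 0.46 (SE) on the log2 scale, did not pass the test either, at an adjusted p of 0.055 by edgeR. Of a list of 10 markers of dividing cells, 9 are named in the deposited gene list, so the authors had called them in this contrast. By edgeR 7 of these fell in layers, beside 0.969% of all genes tested. With non-layer 3 left out 9 did so, with 3 without layer 3 and 0 without layer 1, layer 2, non-layer 1 or non-layer 2. Of all genes, 213 were called lower without non-layer 3 and 77 without layer 3. Without layer 1, layer 2, non-layer 1 or non-layer 2, only 6, 0, 0 and 0 of all genes were called lower. Summed, the 9 markers were at 27.1 to 35.8 CPM in layers and at 529, 625 and 124 CPM in non-layers 1, 2 and 3. None of the 9 was at 0 in any library, and each had its lowest non-layer level in non-layer 3, as CCKBR did. The part of dividing cells in the difference of CCKBR was not tested.

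**Figure D3:**
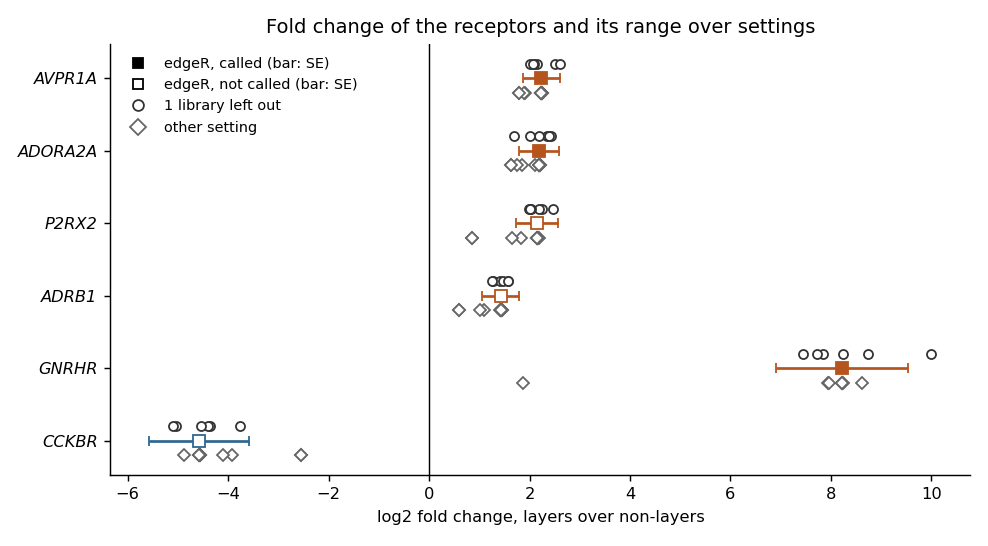
log2 fold change of layers over non-layers for each receptor; squares are edgeR with the standard error as a bar, filled where called and open where not, circles leave out 1 library each and diamonds are the other settings. All 6 receptors, whose groups do not overlap in CPM, keep their direction in every setting that tested them. GNRHR has the widest spread, with its lowest value of 1.86 on the log2(RPKM + 1) scale.

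To compare the levels of different receptors, RPKM was used, in which the counts are divided by the exon length and the library's total. In layers the order was AVPR1A at 34.9 ± 12.2 RPKM, ADORA2A at 24.7 ± 11.8, GNRHR at 3.45 ± 3.02, ADRB1 at 1.74 ± 0.412, P2RX2 at 1.65 ± 0.378 and CCKBR at 0.330 ± 0.155 RPKM (SD, n = 3 each). AVPR1A and ADORA2A overlapped each other, and so did GNRHR with ADRB1 and ADRB1 with P2RX2, so that the layers show 3 tiers with CCKBR lowest. In non-layers CCKBR came first at 9.77 ± 8.34 RPKM, followed by AVPR1A at 9.25 ± 3.31, ADORA2A at 6.87 ± 1.49, ADRB1 at 0.816 ± 0.213, P2RX2 at 0.461 ± 0.127 and GNRHR at 0.0105 ± 0.0181 RPKM (SD, n = 3 each). There CCKBR, AVPR1A and ADORA2A overlapped as neighbours in the order, ADRB1 overlapped with P2RX2, and GNRHR was apart from all others. CCKBR was thus lowest in layers and highest by its mean in non-layers, while GNRHR was the third in layers and lowest in non-layers. The first place of CCKBR in non-layers depended on single hens. Without non-layer 2 its mean was 5.72 RPKM, below AVPR1A at 7.34 and ADORA2A at 6.10, and without non-layer 1 it was 9.55 RPKM, below AVPR1A at 10.3. The order was the same by CPM as by RPKM in either group.

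**Figure D4:**
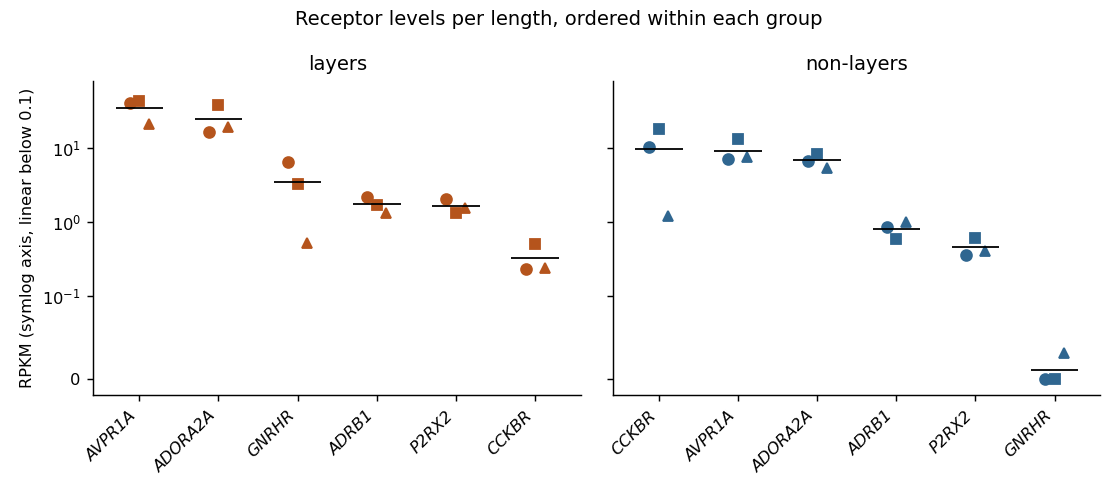
RPKM of each receptor in the 3 layers (left) and the 3 non-layers (right), on an axis that is linear below 0.1 and logarithmic above; symbols are hens and lines are means, and genes are ordered by the mean of the group. AVPR1A and ADORA2A lead in layers, CCKBR overlaps with them in non-layers, and GNRHR is at or near 0 in non-layers.

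Among all 19152 genes of the table, AVPR1A exceeded between 76.8% and 89.2% of genes in RPKM in the layers and between 51.4% and 63.5% in the non-layers. ADORA2A exceeded 71.1% to 87.6% of genes in layers and 47.2% to 55.4% in non-layers. P2RX2 exceeded no more than 41.7% of genes in any library, and ADRB1 no more than 42.0%. The receptors also differed in their gene models. The exon lengths are 1257 bases for AVPR1A, 1311 for ADORA2A, 1113 for P2RX2, 1275 for ADRB1, 1955 for GNRHR and 1407 for CCKBR. All but that of GNRHR are multiples of 3, as are 54.2% of those in the deposited gene list, and such lengths arise where a model holds coding sequence alone. Reads from untranslated regions that the model leaves out were not counted, and RPKM does not correct for them. The model of ADRB1 is a single exon, as its exon length equals its span. Each of the 6 genes has 1 transcript in the list.

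The order of the hens differed between the receptors, though at low counts it lay within counting error. Layer 1 was the highest layer for ADRB1, P2RX2 and GNRHR, and layer 2 for ADORA2A, AVPR1A and CCKBR. Layer 3 was the lowest layer for ADRB1, AVPR1A and GNRHR. Non-layer 2 was the highest non-layer for ADORA2A, AVPR1A, P2RX2 and CCKBR but the lowest for ADRB1. Likeness of patterns was measured as the mean absolute difference over the 6 libraries of log2 CPM centred on each gene's own mean. Among the 6 receptors, AVPR1A and P2RX2 were most alike by this measure, at 0.30, followed by ADORA2A and AVPR1A at 0.34. GNRHR and CCKBR were the least alike, at 4.49. GNRHR had 0, 0 and 1 counts in non-layers 1, 2 and 3, so its distances depend most on the prior count of 2 in log2 CPM. The prior count also draws the groups of P2RX2, ADRB1 and CCKBR somewhat together, as these have low counts as well. The measure spans both groups of hens, so it includes the difference between layers and non-layers and is no measure of variation between hens alone.

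The same measure gave the named genes that were nearest to each receptor among 513 others. ADORA2A was nearest to NTS, the precursor of neurotensin, at 0.17, and then to HPGDS, a prostaglandin D synthase, and ALDH1L2, a mitochondrial folate enzyme, both at 0.19. ADRB1 was nearest to PPARGC1A, a transcriptional coactivator of mitochondrial genes, at 0.12, followed by MAP1LC3A of autophagy and the phospholipase PLCB4, both at 0.14. P2RX2 was nearest to OSTN, or osteocrin, at 0.18, and then to VSTM5 at 0.22 and the growth factor GDF2 at 0.23. AVPR1A was nearest to RUBCNL at 0.26, the spermidine synthase SRM at 0.27 and the receptor tyrosine kinase ROS1 at 0.27. GNRHR had no near match, and its nearest genes were the sialidase NEU4 at 0.64, PHGDH at 0.83 and PRKG2 at 0.87. These distances also depend on the prior count, which mostly sets the log2 CPM of GNRHR in non-layers. To a lesser degree, so do those of ADRB1, P2RX2 and CCKBR. CCKBR was nearest to NUF2 at 0.39 and to NCAPG2 and NUSAP1 at 0.42, which act at the kinetochore, in chromosome condensation and on the spindle in dividing cells. These are descriptions over 6 libraries that share the contrast by which all of these genes were named.

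Of the other genes that make up the same receptor families, none of the remaining members of a list of 28 is named in the deposited gene list, so their levels were not analysed here. The same holds for 18 genes of ligands and of enzymes that make or clear them.

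Of 52 G proteins, second messenger enzymes and effectors, 10 are named, as the authors had called them in this contrast. Of the 10, edgeR called 4 higher and 0 lower in layers, beside 0.901% and 0.969% of all genes tested. The cGMP-dependent kinase PRKG2 rose most, to 25.3 ± 7.44 CPM in layers against 1.31 ± 0.504 CPM in non-layers (SD, n = 3 each), or by 4.26 on the log2 scale at an adjusted p of 0.016 by edgeR. The phosphodiesterase PDE4B, which breaks down cyclic AMP, averaged 100.1 ± 46.6 CPM in layers against 23.7 ± 5.08 CPM in the non-layers (SD, n = 3 each), a rise of 2.08 on the log2 scale at an adjusted p of 0.036 by edgeR. CREM, a transcription factor of the cyclic AMP response, had a log2 fold change of 1.78 and PLCB4, a phospholipase C that Gq activates, of 1.12, and both were called. PDE10A, at 2.15, RGS11, at 1.89, CAMK1D, at 1.40, and PRKCB, at -1.37, were not called, with adjusted p-values between 0.055 and 0.15 by edgeR. Of the 4 genes called here, 4 remained without layer 3, 2 without layer 1 and 3 without non-layer 3. Of the 249 genes called in all, 146, 32 and 153 remained in these fits. With newly called genes included, 7 effectors were called without layer 3 and 3 without layer 1, all higher in layers. None of the 4 remained after leaving out layer 2, non-layer 1 or non-layer 2, where 2, 0 and 1 of all genes were called. With library size as the only scaling, 3 of the effectors were called higher and 2 lower, beside 0.773% and 5.09% of all genes. For PDE10A the groups overlapped, with 298, 429 and 53 counts in layers 1, 2 and 3 and 58, 74 and 79 in non-layers 1, 2 and 3.

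Of 49 receptors outside these families, 12 are named and the others were not analysed here. Of these 12, 3 had higher and 9 lower values in layers. Of them edgeR called 1 higher and 4 lower, beside 0.901% and 0.969% of all genes tested. Their median difference was -1.41 on the log2 scale. The receptor of relaxin, RXFP1, rose to 58.4 ± 13.5 CPM in layers, against 24.8 ± 1.64 CPM in non-layers (SD, n = 3 each), or by 1.23 on the log2 scale at an adjusted p of 0.037 by edgeR. The progesterone receptor PGR fell by 1.18 on the log2 scale (adjusted p = 0.033 by edgeR) and averaged 362 ± 8.68 CPM in layers against 820.3 ± 99.5 CPM in the non-layers (SD, n = 3 each). LGR5, a receptor for R-spondins, fell by 2.27 on the log2 scale, to 100.7 ± 43.6 CPM in layers against 485 ± 15.4 CPM in non-layers (SD, n = 3 each). The endothelin receptor EDNRA fell by 1.51 on the log2 scale. The lysophosphatidic acid receptor LPAR6 also fell, with 81, 97 and 135 counts in layers 1, 2 and 3, against 302, 355 and 347 in non-layers 1, 2 and 3. APLNR, NPY5R and P2RY6, the receptors for apelin, neuropeptide Y and uridine diphosphate, had log2 fold changes of -2.26, -2.10 and -1.42, and CHRNA1, a subunit of the nicotinic acetylcholine receptor, of 1.69, and none of these 4 was called. P2RY6 is a purinergic receptor of the G protein-coupled kind, unlike the channel P2RX2. Of the 5 genes called here, 4 remained without layer 3, 1 without layer 1 and 2 without non-layer 3. Of the 249 genes called in all, 146, 32 and 153 remained in these fits. None of the 5 remained after leaving out layer 2, non-layer 1 or non-layer 2, where 2, 0 and 1 of all genes were called. With library size as the only scaling, RXFP1 was not called. Then 0 of the 12 were called higher and 9 lower, beside 0.773% and 5.09% of all genes. The authors chose the named genes of these lists on these libraries, so their counts are not independent evidence of a direction.

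**Figure D5:**
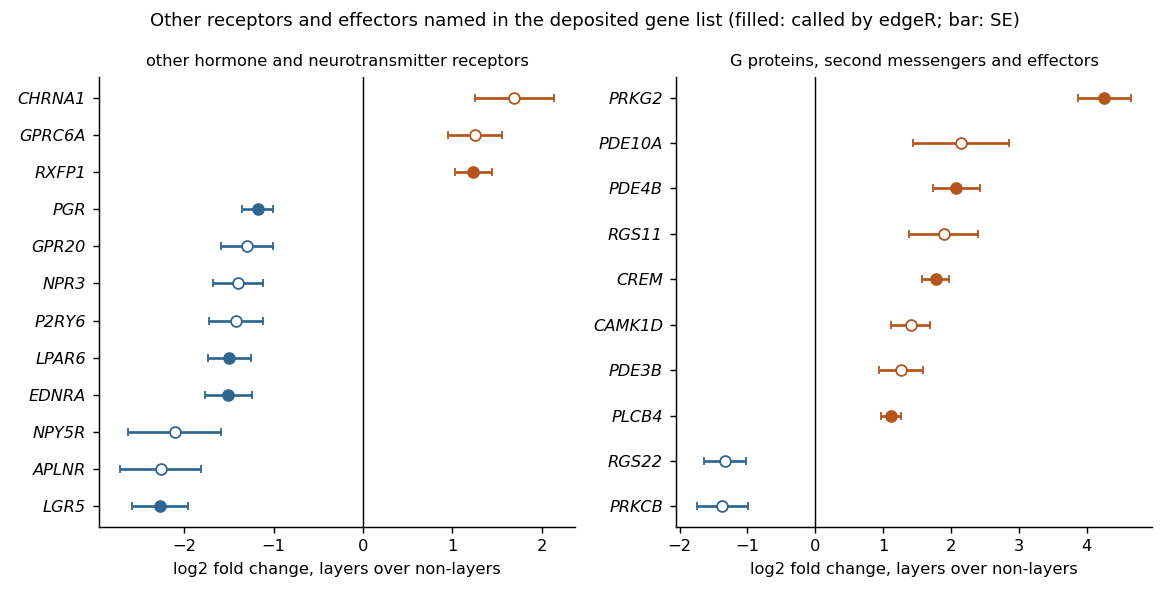
log2 fold change of layers over non-layers with the standard error as a bar, for 12 other receptors (left) and 10 effectors (right) that are named in the deposited gene list; filled symbols were called by edgeR. In the left panel 9 genes lie below 0, and in the right panel 8 lie above it.

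Regarding the tissue, 5 of 14 markers of the shell gland epithelium are named, namely MEPE, SPP1, OTOP2, ATP2B2 and CLCN2. A marker is named only where the authors called it on these libraries, so a marker without a difference could not appear. The markers EPCAM, CDH1 and KRT7 of this list are among those not named. All 5 named markers rose in layers by edgeR, beside 0.901% of all genes tested, and all 5 did so without layer 3. There were 4 called without non-layer 3, 3 without layer 1, 1 without layer 2, 1 without non-layer 2 and 0 without non-layer 1. In these fits 61, 35, 2, 1 and 0 of all genes were called higher in layers, and 196 were without layer 3. Summed, the 5 markers were at 49093 to 54179 CPM in layers and at 186 to 355 CPM in the non-layers. Most of the layers' sum came from MEPE, a shell matrix protein, at a mean of 48627 CPM. The rises of the 5 markers ranged from 1.90 for CLCN2, a chloride channel, to 11.03 for SPP1, or osteopontin, on the log2 scale. Of 10 immune cell markers 3 are named, which summed to 6.96 to 12.4 CPM in layers and to 21.3 to 42.1 CPM in the non-layers. All 3 had an unadjusted p under 0.05 by edgeR, as did 20.3% of all genes tested. Of the 3, 0 passed (adjusted p between 0.057 and 0.11 by edgeR). The single named marker of 8 for ciliated cells, TEKT1, ranged over 31.1 to 69.4 CPM in layers and over 112 to 123 CPM in the non-layers and did not pass either (adjusted p = 0.070 by edgeR). Scaled by library size only, edgeR called all of these immune and ciliated cell markers lower, beside 5.09% of all genes. None of 10 smooth muscle, 11 neuronal and glial and 6 endothelial markers is named, so the share of these cells, which are among those known to carry receptors of these families, has no value here. The part of a change in cell types in the differences of the receptors was not tested.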

How the data were processed

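RNA-seq was analysed for the uterus of 3 layers and 3 non-layers, grouped by the laying status in their labels. Single-end reads were quality-filtered by the authors (Prinseq) and mapped to the Galgal 5.0 assembly with Array Studio. The authors deposited expected counts per Ensembl gene that were not normalized, of which 91.6% were whole within 1e-06. Gene counter, strand setting and annotation release are not given in the sources used here. The authors also deposited RPKM values, and the library size recovered from the receptors' counts, exon lengths and RPKM matched the library's total of gene counts. Their list of 616 called genes gave names, Galgal 5.0 coordinates and exon lengths, and its columns of fold changes, p-values, q-values and group means were not used. No per-sample column was left without a sample.

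Counts were rounded and compared with edgeR 4.0.16 in R 4.3.3 (TMM, filterByExpr, quasi-likelihood F-test, no covariates). Standard errors were obtained as |log2 fold change| / √F. DESeq2 1.42.0, limma 3.58.1 on log2(RPKM + 1) or log2(RPKM + 0.1), other scalings, filters and thresholds, a block on the replicate number and the omission of single libraries were alternatives. Limma was run on genes that reached 1 RPKM in 3 or more libraries, or without a filter. Log2 CPM for likeness used a prior count of 2. The edgeR, DESeq2 and limma fits without a block and with all 6 libraries were tested on simulated data. Python 3.11.15, numpy 2.4.6, pandas 2.3.3 and scipy 1.17.1 were used for the rest.

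Libraries of a group differed far beyond sampling noise (chi-square per gene 13.4 to 155), and none was counted as a duplicate. Reads carry no molecular identifiers, so intervals and limits cover counting error only. The p-values rest on the spread between 3 hens a group, with each gene's estimate of it drawn towards the trend over all genes. An exact permutation test of 3 against 3 cannot go below a two-sided p of 0.1 and was not run. Receptors and gene lists were chosen with earlier results of these data known. The text names the 6 receptors and the 3 named genes nearest to each receptor. Of the lists of receptors, effectors and shell gland markers it names the called genes, with up to 4 more by size of change. Markers of dividing and immune cells are summarized without their names. Some genes of the lists are not reported here. ANPEP and CNGA4 were added after their values were seen, as the listed genes nearest to GNRHR and CCKBR. The reference table matched 0 of the Ensembl identifiers.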

Additional observations from a re-analysis of the deposited data

How the results depend on the processing

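With 3 of the 6 receptors and 249 of all genes called, the counts depended on the scaling, the test and single libraries, whereas all 6 receptors kept their direction in every setting that tested them. Library size as the only scaling called 5 receptors and 781 genes, with 103 genes higher and 678 lower in layers, and the median over all genes was -0.33 instead of 0.01 on the log2 scale. DESeq2's Wald test called 6 receptors and 928 genes. The receptors came from the authors' DESeq2 list of these libraries, so that count is no independent support. Limma on log2(RPKM + 1) called 2 of 5 receptors tested and 604 genes, 86 of them higher in layers. RPKM is scaled by the library's total alone, so scaling changed along with the test. The median over all genes tested was -0.30 in that fit. On log2(RPKM + 0.1) limma called 3 of 5 receptors and 662 genes, 90 of them higher, at a median of -0.34. Without a filter, limma on log2(RPKM + 1) called 0 of 6 receptors and 258 genes, 40 of them higher, at a median of -0.21. There P2RX2 had an adjusted p of 0.048 by limma and was uncalled because its difference of 0.855 was under 2-fold. In that limma fit all 6 receptors had an unadjusted p under 0.05, as had 4481 of 16943 genes. edgeR's test against a 2-fold change called 0 receptors and 8 genes, with 5 receptors and 586 genes at an unadjusted p under 0.05. Leaving out 1 library gave between 0 and 2 receptors and between 0 and 274 genes, with 41 genes without layer 1, 2 without layer 2 and 1 without non-layer 2. Without non-layer 1, the fit in which no gene was called by edgeR, 1704 genes had an unadjusted p under 0.05, and all 6 receptors had one in each of these fits. The replicate block called 0 receptors and 21 genes by edgeR, with 6 receptors and 2224 genes at an unadjusted p under 0.05. The labels do not say that the numbers pair the hens. Deviations of same-numbered libraries correlated at -0.15, 0.11 and -0.07 over genes. Layers 1 and 3 correlated better with another number, and layer 2 correlated best with non-layer 2. Whether same-numbered hens shared a batch was not tested. Counting each receptor in each alternative that tested it, the call was unchanged in 71 cases, lost in 25 and gained in 7. In 6 of the unchanged cases only the 2-fold rule was dropped. That could not alter a call, as all 6 receptors changed more than 2-fold by edgeR. This alternative and the test against a 2-fold change reuse edgeR's fold changes, so their direction was fixed. Leaving out 1 library could hardly reverse a direction either, as the groups of all 6 receptors did not overlap in CPM. The kept direction is therefore a description and no test passed. The unchanged cases include 17 for ADRB1, 15 for P2RX2 and 13 for CCKBR, which stayed uncalled. Staying uncalled says little in the fits that called few genes of any kind. The gained calls include those of ADRB1, P2RX2 and CCKBR by DESeq2, the tool behind the list that named them. For ADORA2A the call was kept in 9 alternatives and lost in 9, for AVPR1A in 10 and 8, and for GNRHR in 7 and 8. GNRHR had too few counts for the filter of 10 counts in every library, as had P2RX2 and CCKBR, and too low RPKM for the limma filter. Low counts limit the precision for P2RX2, ADRB1, CCKBR in layers and GNRHR in non-layers, as does the spread between hens for CCKBR in non-layers and GNRHR in layers.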
